A study of Mus musculus with 2 samples.

Results

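The Mir17-92 and Mir106b-25 clusters are a pair of paralogous microRNA loci, best known for their activity in dividing cells. Their members were the genes Mir17, Mir18, Mir19a, Mir20a, Mir19b-1, Mir92-1, Mir106b, Mir93 and Mir25, chosen by gene name in the GENCODE M21 annotation and grouped by locus. All 9 were found among the 2202 microRNA genes of the count tables, 6 at the first locus and 3 at the second.

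The samples were 2 microRNA-seq libraries of gastrocnemius, the large calf muscle, from adult male B6CASTF1/J mice aged 18 to 20 months. B6CASTF1/J animals are first-generation hybrids of C57BL/6J and CAST/EiJ. The labels name no treatment and no engineered allele, and they give the libraries as biological replicates 1 and 2 from different biosamples that carry the same donor identifier. They do not say whether the biosamples came from different animals, so differences between the libraries may be technical. With a single group there was no contrast between conditions.

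A microRNA gene is transcribed as part of a longer RNA from which a hairpin is cut, and the hairpin is cut again into a mature strand of about the length of these inserts (under 30 nt). The mature strand guides the silencing complex to messenger RNAs through its seed, bases 2 to 8. The Mir17-92 transcript is activated by Myc and E2F factors, and Mir106b-25 lies inside Mcm7, which encodes a subunit of the helicase that opens replication origins. Strands with the miR-17 seed repress cell cycle inhibitors such as Cdkn1a and members of the E2F family. Adult muscle fibres do not divide, while satellite cells, endothelial cells and blood cells of the same tissue can.

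The mature strands below show how the members fall into seed groups. For each member the arm that is usually the more abundant is given, 5′ to 3′, with the seed in capitals, as RefSeq lists it for GRCm38.p6. The deposited counts are per gene and do not separate the arms. The 4 strands with the miR-17 seed come from both loci:
miR-17-5p: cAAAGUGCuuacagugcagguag
miR-20a-5p: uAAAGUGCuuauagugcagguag
miR-93-5p: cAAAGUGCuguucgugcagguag
miR-106b-5p: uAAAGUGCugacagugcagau
The miR-18 strand is alone among the members:
miR-18a-5p: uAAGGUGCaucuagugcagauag
The miR-19 strands come from the Mir17-92 locus:
miR-19a-3p: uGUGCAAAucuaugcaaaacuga
miR-19b-3p: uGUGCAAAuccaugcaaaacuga
The miR-92 and miR-25 strands come from the end of each locus:
miR-92a-3p: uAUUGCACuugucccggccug
miR-25-3p: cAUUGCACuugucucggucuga

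Counted from 1 at the 5′ end, miR-20a-5p differed from miR-17-5p by the 2 substitutions C1U and C12U. The strand miR-93-5p differed from miR-17-5p by 4, U10G, A11U, C12U and A13C, all outside the seed. The strand miR-19a-3p differed from miR-19b-3p by the single substitution C11U. Over 21 positions miR-25-3p differed from miR-92a-3p by U1C, C14U and C18U.

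Some of these strands are not unique to a hairpin. The whole of miR-92a-3p lies in the hairpins of both Mir92-1 and Mir92-2, and the whole of miR-19b-3p in those of both Mir19b-1 and Mir19b-2. Mir92-2 and Mir19b-2 belong to the third paralogous cluster, Mir106a-363, on chromosome X. The other 7 strands above were each found in a single microRNA gene of the tables. The hairpins are shown because they tell how much sequence a read from Mir92-1 or Mir19b-1 would need before it differed from its copy, with the mature 3p strand in capitals:
Mir92-1: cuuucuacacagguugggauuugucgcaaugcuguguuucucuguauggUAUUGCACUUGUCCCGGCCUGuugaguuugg
Mir92-2: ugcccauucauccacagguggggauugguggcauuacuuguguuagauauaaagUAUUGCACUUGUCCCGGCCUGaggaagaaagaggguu
Mir19b-1: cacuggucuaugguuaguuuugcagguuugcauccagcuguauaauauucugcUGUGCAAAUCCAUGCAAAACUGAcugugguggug
Mir19b-2: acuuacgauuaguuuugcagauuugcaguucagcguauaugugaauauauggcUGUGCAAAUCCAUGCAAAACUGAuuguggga
The longest stretch shared by the Mir92 hairpins was 22 bases, and that shared by the Mir19b hairpins was 25 bases. For the other 7 members, the longest match to a different locus was 17 bases.

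MicroRNA genes received 4442692 counts in replicate 1 and 2156222 in replicate 2. Levels are CPM, a gene's counts scaled by the library's total over microRNA genes, and no count allowed up to 0.675 CPM in replicate 1 and 1.39 CPM in replicate 2, taking 3 counts as the limit. Of all reads, 73.8% and 70.2% mapped to several places and are in no gene count, so a gene with a copy elsewhere can be counted too low. As a check of the tissue, 9 of the 10 genes of a skeletal muscle list had counts in both libraries, and Mir1b had 0 and 1. The check is weak, since the 9 ran from 3.83 and 2.32 CPM for Mir133a-2 to 11810 and 61540 CPM for Mir206. The limit on genes with a copy elsewhere holds for this list too, so a low count in it need not mean a low level. The list summed to 16413 CPM in replicate 1 and 65701 CPM in replicate 2, most of it Mir206. By the test between libraries described further on, 3 of its genes were higher in replicate 2 and 4 in replicate 1, with a median log2 ratio of −0.30. The seed core of the miR-17 group also occurs in strands of the Mir290 and Mir302 clusters of pluripotent cells. Of 10 genes of those clusters, among them Mir367 with the miR-92 seed, 7 had no count, and the 10 summed to 1.58 and 2.32 CPM.

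The 9 members together took 0.526% of assigned counts in replicate 1 (Wilson 95% interval from 0.519 to 0.533) and 0.389% in replicate 2 (from 0.381 to 0.397). Of them, 7 were at 2 CPM or more in both libraries, and 2, Mir19a and Mir19b-1, had no count in either. Intervals take each read as an independent count and cover counting error only. The reads were amplified by PCR, so the intervals can be too narrow even for that error.

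The Mir17-92 locus lies on chromosome 14 of mm10, plus strand, from 115043671 to 115044506, in exon 2 of the long non-coding RNA gene Mir17hg. Its 6 hairpins fit into 836 bases, with gaps of 35 to 96 bases between them. They summed to 3204 CPM in replicate 1 and 2167 CPM in replicate 2, or 2685 ± 734 CPM (SD, n = 2).

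Mir92-1 (ENSMUSG00000076062, 115044427 to 115044506), the last hairpin, held the most. It had 8772 counts or 1974 CPM in replicate 1 and 2480 counts or 1150 CPM in replicate 2, ranks 46 and 49 of the 2202 genes. Mir92-1 alone made up 61.6% of the locus' counts in replicate 1 (Wilson 95% interval 60.8 to 62.4) and 53.1% in replicate 2 (51.6 to 54.5).

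Mir17 (ENSMUSG00000065508, 115043671 to 115043754), the first hairpin, had 754 CPM in replicate 1 and 642 CPM in replicate 2. Mir20a (ENSMUSG00000065442, 115044157 to 115044263), which carries the same seed, had 444 CPM in replicate 1 and 356 CPM in replicate 2. Both were thus present at similar levels in the 2 libraries, and their ranks were 59 and 62 for Mir17 and 81 and 83 for Mir20a. Mir17 held 1.70 times the counts of Mir20a in replicate 1 and 1.81 times in replicate 2, a difference of 0.09 on the log2 scale whose exact 95% interval, −0.06 to 0.24, contained 0.

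Mir18 (ENSMUSG00000065403, 115043851 to 115043946) lies between Mir17 and Mir19a and was the lowest of the detected members. It had 140 counts or 31.5 CPM in replicate 1 and 40 counts or 18.6 CPM in replicate 2. Mir17, the hairpin 96 bases before it, had 23.9 times its counts in replicate 1 and 34.6 times in replicate 2.

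Mir19a (ENSMUSG00000065416, 115044000 to 115044081) and Mir19b-1 (ENSMUSG00000076256, 115044305 to 115044391) had no count on either strand in either library. They sit on either side of Mir20a, with 75 bases between Mir19a and Mir20a and 41 between Mir20a and Mir19b-1. Against the locus' total, no count placed each below 0.0270% of the counts in replicate 1 and below 0.0822% in replicate 2 (upper Wilson 95% bounds). Mir19b-2, the only other gene of the tables with the miR-19 seed, had no count either, so no count fell to a gene with that seed. The Mir19b genes share 25 bases and multimapping reads were not counted, while the longest stretch that Mir19a shares with another microRNA gene is 13 bases. The part of mapping in these absent counts was not tested.

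The Mir106b-25 locus lies on chromosome 5 of mm10, minus strand, from 138165321 to 138165818, in intron 13 of the 15-exon transcript of Mcm7. A shorter Mcm7 transcript has it in intron 8, and a retained-intron transcript of Mcm7 overlaps Mir93 and Mir25 with its exon 1. Its 3 hairpins span 498 bases, with gaps of 126 and 118 bases. They summed to 2053 CPM in replicate 1 and 1723 CPM in replicate 2, or 1888 ± 234 CPM (SD, n = 2).

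Mir93 (ENSMUSG00000065527, 138165523 to 138165610), the middle hairpin, had 6370 counts or 1434 CPM in replicate 1 and 3234 counts or 1500 CPM in replicate 2, ranks 49 and 45. Mir106b (ENSMUSG00000065514, 138165737 to 138165818), transcribed first, had 1579 counts or 355 CPM in replicate 1 and 277 counts or 128 CPM in replicate 2. Mir25 (ENSMUSG00000065394, 138165321 to 138165404), transcribed last, had 1173 counts or 264 CPM in replicate 1 and 204 counts or 94.6 CPM in replicate 2. Mir93 was therefore close in the 2 libraries while its neighbours on both sides were well below in replicate 2.

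**Figure D1:**
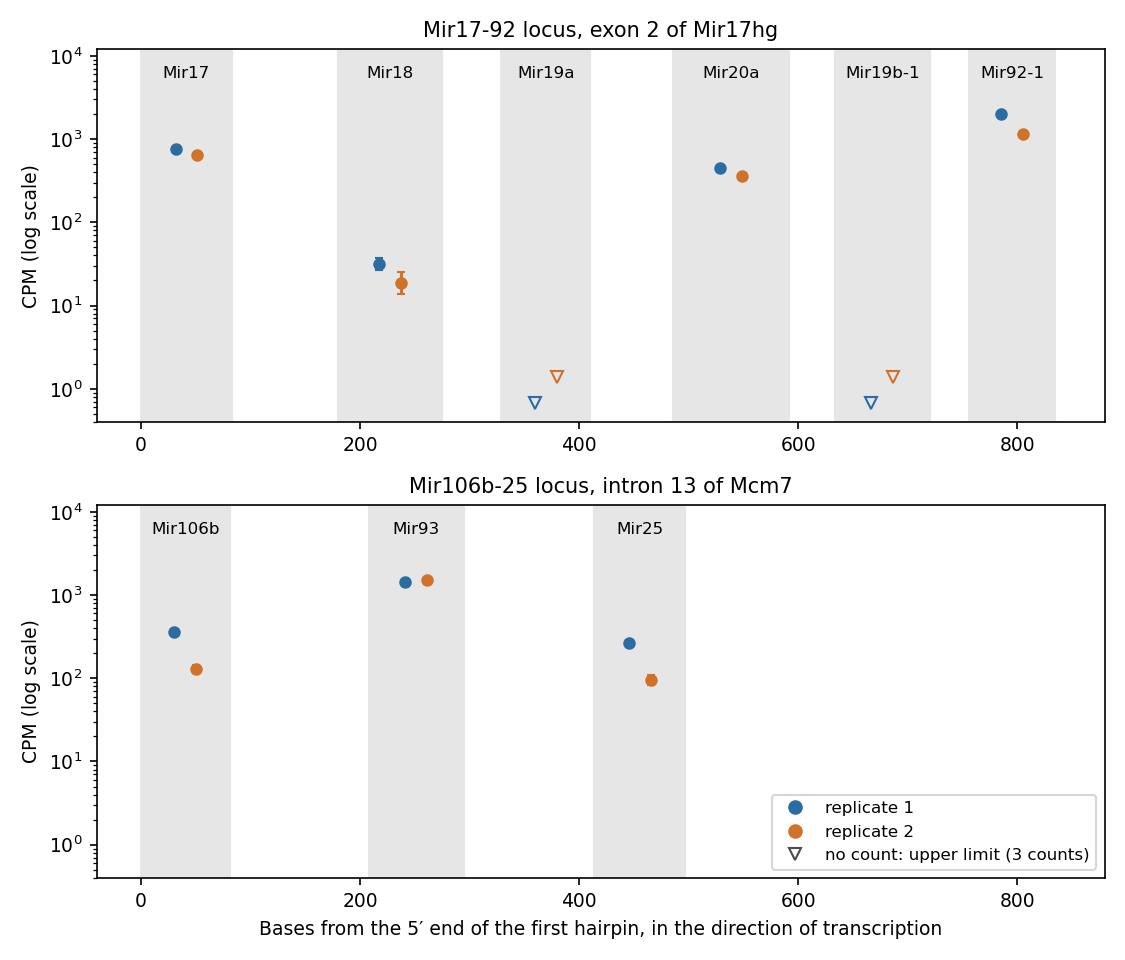
CPM of each member (log axis) at its position along its locus, in bases from the first hairpin in the direction of transcription; grey bands are hairpins, points are the 2 libraries, bars are Wilson 95% intervals and open triangles are the limits of 0.675 and 1.39 CPM where there was no count. Levels within the Mir17-92 locus run from no count to 1974 CPM, and Mir93 at 1434 and 1500 CPM stands above Mir106b and Mir25.

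By mean CPM the order was Mir92-1 (1562 ± 583, SD, n = 2), Mir93 (1467 ± 46.7), Mir17 (698 ± 79.0), Mir20a (400 ± 62.5), Mir106b (242 ± 160), Mir25 (179 ± 120) and Mir18 (25.03 ± 9.17). Mir92-1 and Mir93 did not differ beyond their spread: Mir92-1 was higher in replicate 1 and Mir93 in replicate 2. Mir106b and Mir25 had overlapping ranges too, although Mir106b was above Mir25 in both libraries. The remaining neighbours in the order, Mir93 and Mir17, Mir17 and Mir20a, Mir20a and Mir106b, and Mir25 and Mir18, had ranges that did not overlap. For Mir20a and Mir106b the gap was narrow, since the lower value of Mir20a was 356 CPM and the higher value of Mir106b 355 CPM. A read covers a mature strand and not the hairpin, so CPM was not divided by length. Dividing it by the hairpin's length, tried after the data were seen, left all 7 detected members at the same place in the order.

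Within each library the loci can be compared without any scaling between libraries. The Mir17-92 sum was 1.56 times the Mir106b-25 sum in replicate 1 and 1.26 times in replicate 2. On the log2 scale, Mir106b-25 over Mir17-92 was −0.64 in replicate 1 (exact 95% interval from −0.68 to −0.60) and −0.33 in the other library (from −0.39 to −0.27). This order rested on Mir92-1. Without the members that share 20 bases with another locus, Mir92-1 and Mir19b-1, the mean log2 ratio was 0.75 in place of −0.49. Both are members of Mir17-92, and a gene with a copy elsewhere can be counted too low. Leaving them out therefore does not show that Mir106b-25 was the higher locus.

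Within the Mir106b-25 locus the shares of all 3 members differed between the libraries beyond their counting intervals. Mir93 took 69.8% of the Mir106b-25 counts in replicate 1 (Wilson 95% interval 68.9 to 70.8) and 87.1% in replicate 2 (85.9 to 88.1). Mir106b took 17.3% and 7.46%, and Mir25 took 12.9% and 5.49%. Mir106b was 0.248 times Mir93 in replicate 1 and 0.0857 times in replicate 2, a difference of −1.53 on the log2 scale (exact 95% interval −1.73 to −1.34). Mir106b over Mir25 was 1.35 and 1.36, a difference of 0.01 (−0.28 to 0.30). The outer hairpins of the locus thus kept their ratio within counting error, and the middle hairpin did not keep its ratio to either.

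At the Mir17-92 locus, Mir17 took 23.5% of counts in replicate 1 and 29.6% in replicate 2, and Mir92-1 took the smaller share in replicate 2. The difference of Mir17 over Mir92-1 was 0.55 (0.44 to 0.66) and that of Mir20a over Mir92-1 was 0.46 (0.32 to 0.60). Mir92-1 shares 22 bases with Mir92-2 and multimapping reads were not counted, so its counts can miss reads. The part of mapping in these differences was not tested. Of the 9 ratios between detected members of a locus, 5 differed between the libraries beyond their exact 95% counting interval and 4 did not.

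**Figure D2:**
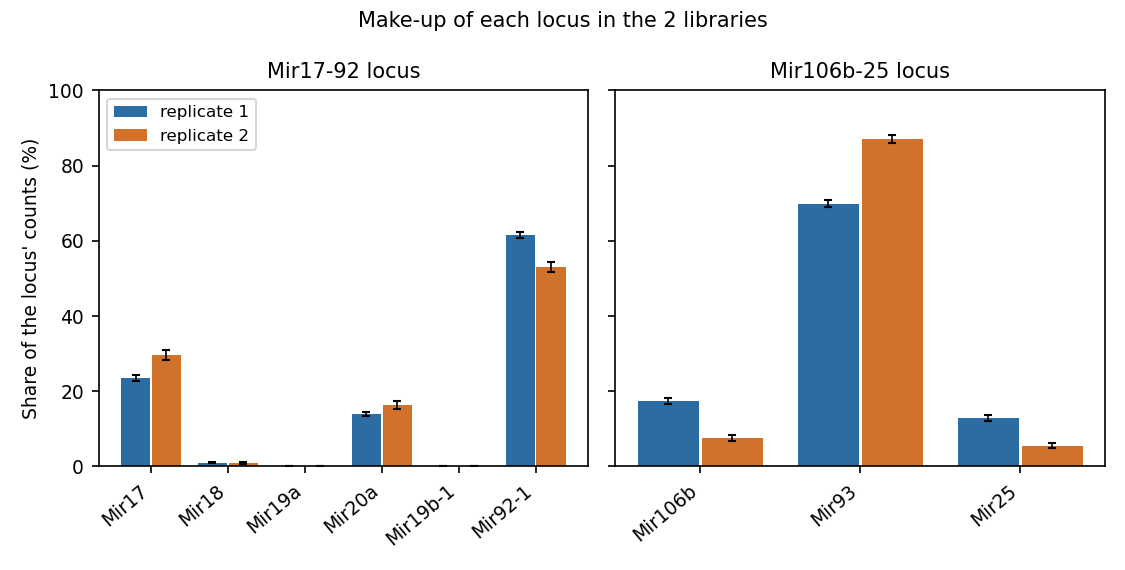
Share of each locus' counts taken by each member, in percent, for replicates 1 and 2; error bars are Wilson 95% intervals. Mir92-1 holds most of the Mir17-92 counts (61.6% and 53.1%), and Mir93 holds 69.8% and 87.1% of the Mir106b-25 counts.

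Replicate 2 against replicate 1 asks how far the members differed between samples with the same labels. Log2 ratios were taken on CPM + 1 after TMM scaling, and each gene with 10 or more counts was tested by an exact two-sided binomial test, adjusted over all 380 genes tested by the Benjamini-Hochberg method. The test compares these libraries and not conditions, and it allows for counting error only. All 7 members that could be tested differed at an adjusted p under 0.05, where 61.8% of all genes tested did. Of the 7, 6 were higher in replicate 1, against 31.6% of all genes, and 1 was higher in replicate 2, against 30.3%. A 2-fold difference was reached by 2 members, against 28.7% of all genes. The median log2 ratio of the 7 was −0.64, and that of the 380 genes was 0.02. A gene with more counts is called more easily by this test. With a filter of 50 counts, 212 of the 271 genes tested differed, among them the 7 members.

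The 2 members past 2-fold were the outer hairpins of Mir106b-25. Mir106b had a log2 ratio of −1.37 (exact 95% interval −1.56 to −1.19; adjusted p = 2.46e-58, exact binomial test), and Mir25 had −1.38 (−1.61 to −1.17; adjusted p = 2.68e-44). Mir92-1 followed at −0.69 (−0.75 to −0.62; adjusted p = 1.72e-104, exact binomial test). Mir18 had −0.64, with the widest interval of the members (−1.22 to −0.16; adjusted p = 0.0146, exact binomial test).

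Mir17 and Mir20a were nearer to 0, at −0.14 (−0.23 to −0.05; adjusted p = 0.00507, exact binomial test) and −0.23 (−0.35 to −0.11). Mir93 was the member higher in replicate 2, at 0.16 (0.10 to 0.22; adjusted p = 1.28e-06, exact binomial test). That call held with DESeq2 size factors but not under 2 other settings: with plain totals Mir93 was at 0.06 (adjusted p = 0.0610, exact binomial test) and with no count filter at 0.01 (adjusted p = 0.929). The directions of all 7 stayed as given under every scaling, filter and count type tried.

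**Figure D3:**
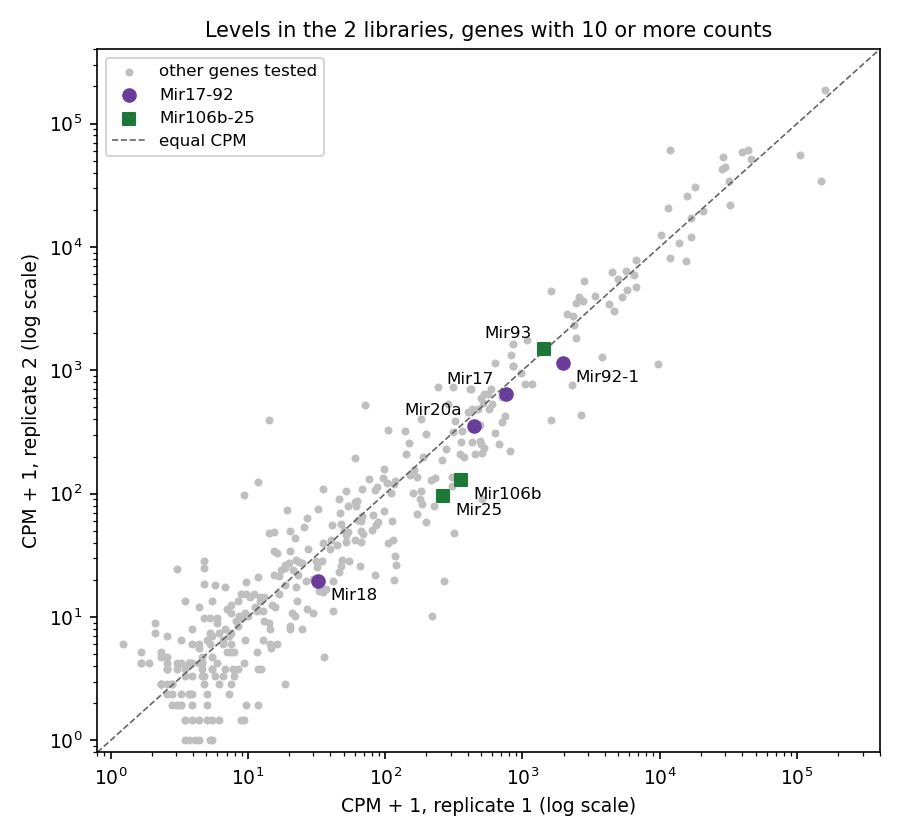
CPM + 1 in replicate 1 against replicate 2 (both axes log), for the 380 genes with 10 or more counts; coloured points are the 7 tested members and the dashed line marks equal CPM. Mir93 lies on the line, and Mir106b and Mir25 lie below it, at 355 against 128 CPM and 264 against 94.6 CPM.

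Markers of other cell types also differed between the libraries. Both erythroid genes, Mir144 and Mir451a, were higher in replicate 1, and their sum was 777 CPM there and 109 CPM in replicate 2. The endothelial gene Mir126a was higher in replicate 1, at 104418 CPM against 55386 CPM, and Mir126b had no count. The 4 leukocyte genes found summed to 2285 and 3632 CPM, with 2 higher in each library. Mir146a was not found under that name. The gene named Mir146 had 470 and 485 CPM and was higher in replicate 2. The pair for smooth muscle and mural cells, Mir143 and Mir145a, was higher in replicate 2, with sums of 48845 and 56840 CPM. Of 5 stromal genes, 2 were higher in replicate 1, 1 was higher in replicate 2, 1 did not pass and Mir199a-1 had no count, and the sums were 3256 and 4837 CPM. Their part in the members' differences was not tested, and in whole tissue fewer cells of a type and less RNA per cell cannot be told apart. In these lists too, a gene with a copy elsewhere can be counted too low.

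Grouped by seed, the gene counts of members of both loci can be added up. These counts do not separate the arms and leave out multimapping reads, so the sums do not measure the strands themselves. The 7 genes of the tables with the miR-17 seed summed to 2994 CPM in replicate 1 and 2634 CPM in replicate 2, which gave a log2 ratio of −0.09 (exact 95% interval −0.14 to −0.05). The 4 members held 99.8% and 99.7% of these counts. The 7 genes with the miR-92 and miR-25 seed summed to 2357 and 1363 CPM, a log2 ratio of −0.70 (−0.76 to −0.64). Mir92-1 and Mir25 held 94.98% and 91.4% of their counts. The whole of miR-92a-3p lies in both Mir92 hairpins, so this sum and these shares can miss its reads. Within the miR-17 seed group the ratios were not alike, since Mir93 and Mir106b, neighbours in one transcript, lay at 0.16 and −1.37.

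The other genes with these seeds each had fewer CPM than any member of their seed group in both libraries. Mir92-2, of the third cluster, had 85.1 CPM in replicate 1 and 55.2 CPM in replicate 2, and its log2 ratio was −0.52 (−0.84 to −0.23; adjusted p = 0.000729, exact binomial test). Mir92b had 19.1 and 48.7 CPM and went the other way, at 1.39 (1.01 to 1.87; adjusted p = 3.17e-11, exact binomial test). Mir32 had 11.3 and 13.4 CPM, at 0.32 (−0.36 to 1.04) without passing.

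The third cluster, Mir106a-363, descends from the same ancestral locus and stood near the detection limit outside Mir92-2. Its 6 genes summed to 94.99 CPM in replicate 1 and 63.1 CPM in replicate 2. Mir92-2 held 89.6% of that sum in replicate 1 and 87.5% in replicate 2, and like Mir92-1 it shares the whole of miR-92a-3p with its copy. Mir106a had 16 and 6 counts, Mir20b had 15 and 10, Mir363 had 13 and 1, and Mir18b and Mir19b-2 had none. The strand miR-106a-5p differs from miR-17-5p by the single substitution U10A, and miR-20b-5p differs from it by U10C and C12U. As at Mir17-92, the gene with the strand miR-92a-3p held most of the counts and the Mir19b gene had none. The Mir19b genes share 25 bases and multimapping reads were not counted, so their absent counts may not be separate observations. The part of mapping in this likeness was not tested.

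**Figure D4:**
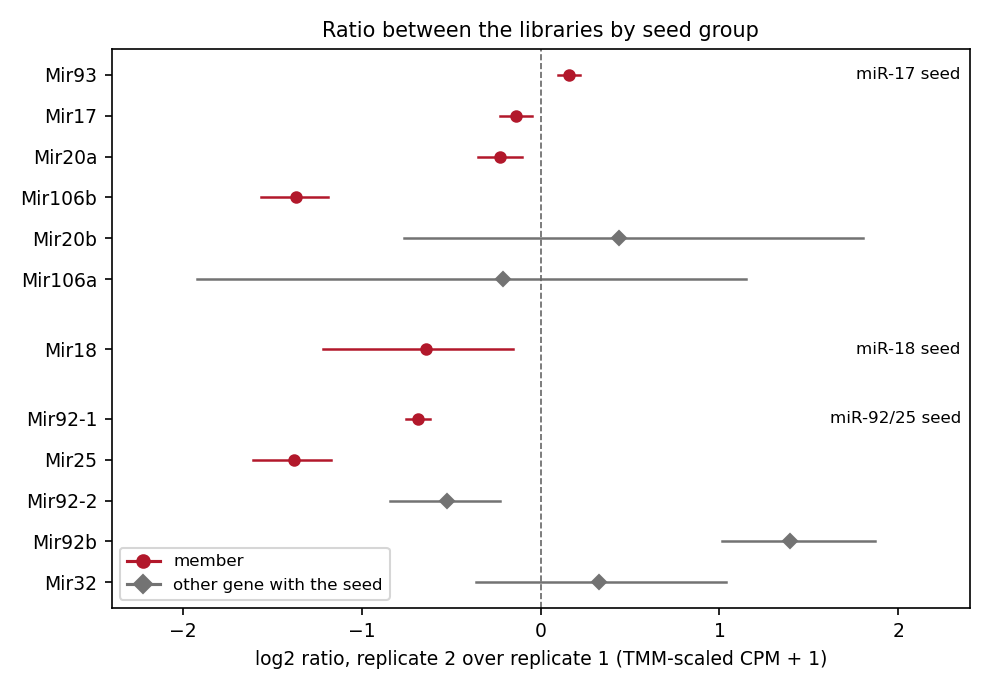
Log2 ratio of replicate 2 over replicate 1 for genes grouped by seed (red circles are members, grey diamonds other genes with the seed; lines are exact 95% counting intervals; Mir363, with 13 and 1 counts, and genes with no count are left out). The points of Mir106b and Mir25 lie at −1.37 and −1.38, below those of the other members, but the wide interval of Mir18 (−1.22 to −0.16) overlaps theirs. Mir92b lies on the other side at 1.39.

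Other microRNA genes linked to cell division and its arrest were found on both sides. Of a list of 9, 8 could be tested, and 5 were higher in replicate 2 and 3 in replicate 1, with a median log2 ratio of 0.63. Mir15b and Mir16-2, whose products repress cyclins and which lie together in Smc4, had 374 and 199 CPM (log2 ratio −0.81) and 182 and 405 CPM (1.24). Mir15a, of the related pair beside Mir16-1, had 2650 CPM in replicate 1 and 437 CPM in replicate 2 (−2.50). Mir34a, a target of p53, had 500 and 598 CPM (0.35). A gene of this list with a copy elsewhere can be counted too low, and the part of mapping in these ratios was not tested.

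With 2 libraries, likeness of pattern means only closeness in level. Members aside, the genes nearest to Mir92-1 in log2(CPM + 1) were Mir193b, Mir328 and Mir1839, at distances of 0.64, 0.74 and 0.94. Those nearest to Mir93, again leaving out members, were Mir150, Mir155 and Mir320, at 0.47, 0.76 and 0.82. Their log2 ratios between the libraries were 0.80, 1.02 and 0.78, against 0.16 for Mir93.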

How the data were processed

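MicroRNA-seq was measured in 2 libraries of 1 group. The authors deposited 1 table of raw counts per microRNA gene for each library, made on mm10 with GENCODE M21 according to the accompanying readmes. Which aligner, trimmer and counter made it is not stated there or in the labels. Its 3 columns fit, by their values, unstranded, sense and antisense counts, and the sense column was used. Reads in no gene were kept out of totals (multimapping, 73.8% and 70.2%; unmapped, 7.93% and 6.76%; no microRNA gene, 2.66% and 3.24%). All 2202 identifiers and 9 members matched M21. Hairpins and mature strands are RefSeq's for GRCm38.p6, the assembly of mm10, and all 9 members matched in sequence and position. A shared stretch means identical bases, on either strand, in a microRNA gene whose position does not overlap. That gene can belong to the same cluster. No genome sequence was used.

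TMM factors came from edgeR 4.0.16 over genes with 10 or more counts and moved log2 ratios by 0.09 against plain totals. Tests were exact binomial tests over all genes, checked on simulated counts with known answers. The simulated counts held counting error only, so the check does not cover other spread between replicates. Other settings were DESeq2 1.42.0 size factors, plain totals, count filters of 1 and 50, counts without strand, pseudocounts of 0.1 and 5 CPM, shared hairpins left out and each library alone. RNAfold 2.7.2, R 4.3.3, Python 3.11.15 and scipy 1.17.1 were used. The members were picked by name and locus, by a rule that uses no measured value, but they, the lists and the tests were chosen with earlier results of these data known. Named were all members, the Mir106a-363 genes, up to 5 others with a shared seed, Mir15b, Mir16-2 and 2 more of the cell division list, and the 3 genes nearest in level to the highest member of each locus.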

Additional observations from a re-analysis of the deposited data

How the results depend on the processing

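All 7 tested members differed between the libraries with DESeq2 size factors, a filter of 50 counts or counts without strand, and 6 did with plain totals or no count filter, Mir93 being the exception. With a required 2-fold difference the calls were 109 of all genes in place of 235, and 2 members in place of 7. Over 49 refits of single members, 47 kept their direction and their call, and 2, both of Mir93, lost the call. Counts without strand, whose totals are smaller, raised the summed levels to 3739 CPM for Mir17-92 and 2624 CPM for Mir106b-25, and totals without the most abundant gene raised them to 3238 and 2280 CPM. Leaving out the hairpins that share 20 bases with another locus (Mir92-1 and Mir19b-1, both of Mir17-92) lowered Mir17-92 to 1123 CPM. Mir106b-25 stayed at 1888 CPM. The log2 ratio of Mir17-92 between the libraries moved from −0.47 to −0.18, and that of Mir106b-25 over Mir17-92 turned from −0.49 to 0.75. With plain totals the sums' log2 ratios between the libraries were −0.56 for Mir17-92 and −0.25 for Mir106b-25, in place of −0.47 and −0.16. Either library alone gave 2167 to 3204 CPM for Mir17-92, 1723 to 2053 CPM for Mir106b-25 and −0.64 to −0.33 for their log2 ratio. With no count filter, TMM scaling lowered the median log2 ratio of all tested genes by 0.14. The lower depth of replicate 2 sets the limit for the genes with no count.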

Other observations

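The hairpins of the loci differ in base composition. Those of Mir17-92 hold 43.7% to 47.5% G and C, and those of Mir106b-25 hold 55.7% to 63.1%. Predicted folding energies (RNAfold, RefSeq hairpins) were weakest for Mir18, at −29.2 kcal/mol, and strongest for Mir93, at −46.3 kcal/mol. Mir18 was also the lowest of the detected members. Mir92-1, the highest by mean CPM, had −34 kcal/mol, and Mir106b, at a mean of 242 CPM, had −41 kcal/mol. A link between folding energy and level was not tested. Mir19a and Mir19b-1, with no count, had −38.7 and −37.8 kcal/mol, within the range of the others.

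Differences in ratio between neighbouring hairpins were common in these libraries. Over 104 other pairs of tested microRNA genes within 10000 bases on the same strand, both with 100 or more counts, the median difference in log2 ratio between the libraries was 0.63, and 11 pairs (10.6%) differed by as much as Mir106b and Mir93 or more. Over all 327 other pairs of tested genes at that distance, the median was 0.95 and 91 pairs (27.8%) differed by that much. The 9 pairs of members had a median of 0.46. Pairs of a locus share members and are not independent, and this comparison was chosen after the data were seen.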
